A study of Mus musculus with 46 samples.

Results

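The comparison described here set microglia (MG) of gliomas that had recurred after radiation (IR) against MG of gliomas at the 5-day IR stage. Its members were the MG libraries whose titles named IR recurrence (4 mice) or the 5-day IR stage (2 mice), so 6 of the 46 libraries in the series. The other libraries came from 4 vehicle mice, from mice given BLZ945, an inhibitor of the CSF1 receptor, or IR+BLZ945, and from the bone marrow-derived macrophages (BMDM) sorted out of the same tumours. All mice carried nTVA and were homozygous for deletion of Ink4a/Arf, and gliomas had been induced at 5 to 6 weeks of age by injecting DF1 cells that release the RCAS-PDGFB-HA virus into the right frontal cortex. The nTVA transgene places the receptor of this virus under the Nestin promoter, which is active in neural progenitors. Age at collection, IR dose and the interval to recurrence were not stated in the labels. The titles do not say from which point of the IR treatment the 5 days were counted. The sort gate for MG was CD45+, CD11b+, Ly6C-, Ly6G- and CD49d-, and BMDM differed from it by being CD49d+. The recurrent mice were numbers 68343, 68344, 68345 and 68346 and the 5-day mice were 65698 and 65972, and values are listed in that order.

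Microglia are the resident macrophages of the brain; they depend on CSF1 receptor signalling and can divide in place. Ionizing radiation breaks DNA and activates p53, which raises Cdkn1a and other targets and halts the cell cycle. Genes of mitosis are held down in halted cells and are transcribed when cells move through S and G2 phase, in part through CHR and CCAAT elements close to their start sites. In bulk RNA of sorted cells, fewer cells of a type and less RNA per cell cannot be told apart.

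Total counts were 12895380, 4597962, 13231166 and 11831889 in the recurrent libraries and 12997437 and 11282795 in the 5-day libraries. Log2 CPM of all tested genes correlated at 0.966 to 0.983 between recurrent libraries and at 0.935 between the 5-day libraries. Xist and the Y-linked genes gave the Y-linked profile in all 4 recurrent MG libraries and in 5-day mouse 65972, whereas MG of mouse 65698 had the Xist profile and the BMDM library of the same mouse number the Y-linked one. The 2 libraries numbered 65698 therefore go against their shared number, and from which mouse each came cannot be told. MG of mouse 65698 and the shallow library of mouse 68344 are called the 2 doubted libraries below. Transcripts of the deleted Cdkn2a locus (Ink4a/Arf) numbered 54 in the recurrent libraries and 3 in the 5-day libraries. Per total count after TMM scaling the ratio was 9.73 (95% interval 3.16 to 48.7, counting error only). The log2 fold change was 3.30 (adjusted p = 0.0409, edgeR's quasi-likelihood test), and 2.87 without mouse 65972. The call was lost with any 1 of the 6 libraries left out. The counts do not say which exons the transcripts came from. Of the sort genes, Itgam, which encodes CD11b, stood at 10.68, 10.99, 10.51 and 10.66 log2 CPM in recurrent MG, against 10.39 and 10.39 in 5-day MG. Ptprc, which encodes CD45, had a log2 fold change of -0.62 that did not pass and that turned sign under some alternatives. Csf1r, which is not part of the gate, stood at 12.15, 12.63, 12.10 and 12.28, against 12.41 and 12.90. Itga4, the gene of the excluded CD49d, stood at 2.29 to 3.27 in recurrent MG and at 2.03 and 1.76 in 5-day MG. Lars2, whose protein charges mitochondrial leucyl-tRNA, and the nuclear noncoding RNA Malat1 separated the groups in opposite directions. Lars2 stood at 12.41, 11.62, 11.85 and 11.77 in recurrent MG, against 5.10 and 6.41 in 5-day MG, with vehicle MG at 6.13 to 13.78. Malat1 stood at 8.48, 7.90, 7.94 and 8.63 in recurrent MG, against 11.54 and 10.79 in 5-day MG, with vehicle MG at 8.85 to 10.34. The part of these 2 transcripts in the results below was not tested beyond a fit that holds their difference as a term, called the Malat1 minus Lars2 term. The 2 groups do not overlap in that difference, so the term is entangled with the contrast itself. A call lost under it therefore cannot by itself tell a loss of effect from a loss of precision.

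Of 14534 genes tested, 1182 rose and 498 fell in recurrent MG (8.13% and 3.43% of those tested; edgeR's quasi-likelihood test, Benjamini-Hochberg adjusted p under 0.05). The median log2 fold change over all tested genes was 0.07. Cell division genes were the most uniform group among those that rose, and immediate early genes, microglia identity genes and p53 targets were the lists with the most members that fell. Values after ± are standard errors of the log2 fold change of recurrence (n = 4) over 5 days (n = 2), and p-values are adjusted over all tested genes. The count was 379 without the 2 doubted libraries, 565 without 5-day mouse 65698, 358 without 5-day mouse 65972, 1015 without recurrent mouse 68345 and 1108 without recurrent mouse 68343. With the Malat1 minus Lars2 term it was 165 (141 higher, 24 lower), of which 149 were also called without the term.

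Genes of mitosis were far higher at recurrence than at the 5-day IR stage. Of 34 members tested, 33 rose and none fell (background 8.13% higher), with a median log2 fold change of 6.09, against 0.07 over all genes. The remaining member was Cenpf, a kinetochore protein, at 2.66. The summed CPM of the list was 1348 to 1446 in recurrent MG, against 37.5 and 41.1 in 5-day MG, and 531 to 2470 in vehicle MG. The recurrent libraries thus lay within the vehicle range and the 5-day libraries below every vehicle library.

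Mki67, which encodes the proliferation marker Ki-67 (chromosome 7, 135689784 to 135716361, minus strand, mm10), stood at 6.24, 6.30, 6.02 and 6.16 log2 CPM in recurrent MG, against -1.96 and 0.12 in 5-day MG. It rose by 6.92 ± 1.16 (adjusted p = 0.00128), and vehicle MG stood at 5.14 to 7.28. Aurkb, the kinase of the chromosomal passenger complex, stood at 4.77, 5.20, 5.01 and 4.99, against -0.40 and -0.87 (5.80 ± 0.71, adjusted p = 0.000412). Recurrent libraries differed from each other by less than 0.5 log2 CPM for either gene. Neither group overlapped the other, as for 30.5% of all tested genes in the higher direction. Pbk, a mitotic kinase gene, stood at 6.45, 6.26, 6.31 and 6.19 in recurrent MG, against -1.56 and -2.04 in 5-day MG (8.55 ± 1.17, adjusted p = 0.000641). Tpx2, a spindle assembly factor, stood at 5.50, 5.58, 5.56 and 5.44, against -2.53 and -0.51 (6.97 ± 0.97, adjusted p = 0.000641). Fam64a, a regulator of mitosis, had 970 counts in recurrent MG and 3 in 5-day MG, a ratio of 175 (95% interval 59.6 to 849, counting error only). Nek2, a centrosome kinase gene, had 975 counts in recurrent MG and none in 5-day MG, and was at least 176-fold higher against a floor of 3 counts over the 5-day group. Vehicle MG had Nek2 at 3.11 to 5.10 log2 CPM, a range that holds the recurrent levels of 4.36 to 4.47. These 6 genes passed under every alternative tried. The count of the list was 26 of 34 with the Malat1 minus Lars2 term and 22 without the 2 doubted libraries.

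Promoters of the mitosis list are shown because its members moved together. The sequences are RefSeq's (GRCm38.p6, the assembly behind mm10), from 250 bases before to 50 after the start, and 27 of the 34 members had an entry. CHR (TTTGAA) was found on either strand in 19 of the 27 (70.4%), against 18.1% of all 27025 promoters, and the CCAAT box in 22 (81.5%), against 37.9%. Both motifs were in 17 (63%), against 7.12%, with matches that share a base counted for each. The windows of Mki67 (chr7:135716330-135716629, minus strand) and Nek2 (chr1:191821223-191821522, plus strand) follow, 5′ to 3′, with CHR and CCAAT matches on either strand in capitals.
Mki67: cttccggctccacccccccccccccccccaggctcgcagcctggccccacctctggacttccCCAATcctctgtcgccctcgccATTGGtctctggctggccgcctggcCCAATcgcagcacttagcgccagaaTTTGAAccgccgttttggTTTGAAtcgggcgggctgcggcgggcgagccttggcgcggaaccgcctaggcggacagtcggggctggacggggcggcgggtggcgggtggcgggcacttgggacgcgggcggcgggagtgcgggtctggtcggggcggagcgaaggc
Nek2: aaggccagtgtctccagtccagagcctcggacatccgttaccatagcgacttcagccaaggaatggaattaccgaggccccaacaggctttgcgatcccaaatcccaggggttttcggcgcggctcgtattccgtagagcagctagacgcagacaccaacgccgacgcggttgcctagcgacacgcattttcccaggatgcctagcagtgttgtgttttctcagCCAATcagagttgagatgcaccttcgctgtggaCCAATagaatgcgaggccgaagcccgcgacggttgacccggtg
The Mki67 window held 2 CHR and 3 CCAAT matches, and the Nek2 window held 2 CCAAT matches and no CHR match. A match is a description of the letters and not a site of binding.

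DNA replication genes were higher too. Of 40 members tested, 30 rose and none fell (background 8.13% higher, median log2 fold change 2.62), and all 40 had a positive fold change. Their summed CPM was 1589 to 1901 in recurrent MG, against 412 and 486 in 5-day MG, and 861 to 2303 in vehicle MG. Rrm2, the small subunit of ribonucleotide reductase, stood at 6.57, 6.73, 6.54 and 6.55 in recurrent MG, against -0.98 and -1.65 in 5-day MG (8.19 ± 1.17, adjusted p = 0.000673). Tk1, thymidine kinase, stood at 5.44, 4.97, 5.49 and 5.19, against -1.96 and -0.87 (6.89 ± 0.97, adjusted p = 0.000641). E2f8, a repressor of the E2F family, had 426 counts in recurrent MG and 1 in 5-day MG, a ratio of 230 (95% interval 41.1 to 9119, counting error only). Mcm5, a subunit of the replicative helicase, stood at 6.56, 6.97, 6.71 and 6.57, against 3.06 and 3.29 (3.54 ± 0.69, adjusted p = 0.00325). The groups did not overlap for any of these 4 genes, as for 30.5% of all tested genes in the higher direction. Mcm5 lost the call without 5-day mouse 65972 (adjusted p = 0.0506), with the Malat1 minus Lars2 term (0.0917) and without the 2 doubted libraries (0.0714). Several members had small differences that did not pass, among them the helicase subunit Mcm3 (0.80) and the GINS subunits Gins3 (0.11) and Gins4 (0.40). The list's count was 7 without the 2 doubted libraries, 12 without mouse 65698, 5 without mouse 65972 and 6 with the Malat1 minus Lars2 term.

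Among 34 DNA repair genes, 5 rose and none fell (background 8.13% higher; median 0.36). Fanca, of the Fanconi anaemia core complex, stood at 2.97, 3.71, 2.97 and 2.72 in recurrent MG, against -1.24 and -0.36 in 5-day MG (4.05 ± 0.94, adjusted p = 0.0085). Brca1 (3.39), the checkpoint kinase gene Chek1 (3.98) and H2afx (1.96), the gene of histone H2AX, were among those that rose. The damage kinases Atm (-0.21) and Atr (0.07), Trp53 itself (0.12) and the end-joining genes Xrcc5 (-0.34), Xrcc6 (0.12) and Lig4 (-0.34) did not pass. The count was 3 with any 1 of the recurrent libraries left out and 1 with the Malat1 minus Lars2 term. None of the 34 passed without mouse 65698, without mouse 65972 or without the 2 doubted libraries.

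Targets of p53 went the other way. Of 32 members tested, 11 fell and none rose (background 3.43% lower), with a median log2 fold change of -1.23. Their summed CPM was 2287 to 2656 in recurrent MG, against 8177 and 10192 in 5-day MG, and 2401 to 3688 in vehicle MG.

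Cdkn1a, which encodes the cyclin-dependent kinase inhibitor p21 (chromosome 17, 29090976 to 29100727, plus strand, mm10), stood at 8.96, 8.49, 8.95 and 8.98 log2 CPM in recurrent MG, against 11.02 and 11.67 in 5-day MG. It fell by 2.52 ± 0.39 (adjusted p = 0.000916), and vehicle MG stood at 7.20 to 7.87, below every recurrent library. Ccng1, cyclin G1, stood at 7.24, 7.08, 7.0 and 6.94 in recurrent MG, against 9.0 and 9.34 in 5-day MG (-2.11 ± 0.25, adjusted p = 0.000412), and vehicle MG at 6.60 to 7.47 held the recurrent levels. Phlda3, an inhibitor of AKT signalling, stood at 4.32, 3.38, 4.63 and 4.26, against 6.40 and 6.68 (-2.33 ± 0.46, adjusted p = 0.00329), with vehicle MG at 0.14 to 1.69. Cdkn1a and Phlda3 in recurrent MG thus lay between the 5-day and the vehicle libraries, while Ccng1 lay among the vehicle libraries; no test against vehicle was made here. Bbc3, the pro-apoptotic PUMA gene, stood at 3.53, 3.26, 3.48 and 3.47, against 5.48 and 6.49 (-2.64 ± 0.42, adjusted p = 0.000916). Sesn2, a stress-induced inhibitor of mTORC1 signalling, stood at 5.35, 5.57, 5.17 and 5.35, against 6.98 and 7.95 (-2.18 ± 0.32, adjusted p = 0.000673). The groups did not overlap for any of these 5 genes, as for 23% of all tested genes in the lower direction. With the Malat1 minus Lars2 term Bbc3 (adjusted p = 0.191) and Sesn2 (0.0595) lost the call, and 5 members of the list passed, whereas Cdkn1a, Ccng1 and Phlda3 passed under every alternative.

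Not every target fell. Mdm2, the ubiquitin ligase that restrains p53 (-1.85), Bax (-0.66), the death receptor gene Fas (0.52) and Gadd45a (-0.32) did not pass. The highest value of the list, that of Ckap2 (3.81), did not pass either; this gene encodes a spindle protein.

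Promoters of p53 targets are shown for those of the 4 members with the smallest p that held a match to the p53 decamer, a search chosen after the sequences had been seen. Of the 32 members, 24 had an entry, and 8 of these (33.3%) held the decamer, against 8.37% of all promoters. The Ccng1 window (chr11:40755237-40755536, minus strand) held 1 match and that of Cdkn1a (chr17:29090729-29091028, plus strand) 2 matches, in capitals below, while those of Sesn2 and Bbc3 held none. RefSeq lists 2 starts for Cdkn1a, and the window of 1 of them is given.
Ccng1: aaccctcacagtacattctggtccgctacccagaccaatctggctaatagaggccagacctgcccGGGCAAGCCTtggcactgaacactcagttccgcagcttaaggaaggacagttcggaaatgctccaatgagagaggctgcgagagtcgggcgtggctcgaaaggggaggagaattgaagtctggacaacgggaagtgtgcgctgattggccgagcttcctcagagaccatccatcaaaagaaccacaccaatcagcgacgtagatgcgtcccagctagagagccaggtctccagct
Cdkn1a: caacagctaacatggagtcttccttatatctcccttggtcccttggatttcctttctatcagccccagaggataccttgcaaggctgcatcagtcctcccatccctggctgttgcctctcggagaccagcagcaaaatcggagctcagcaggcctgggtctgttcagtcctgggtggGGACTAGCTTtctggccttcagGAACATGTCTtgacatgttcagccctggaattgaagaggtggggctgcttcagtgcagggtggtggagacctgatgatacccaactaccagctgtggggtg
The decamer reads the same on both strands, and its matches are not known binding sites from these data.

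**Figure D1:**
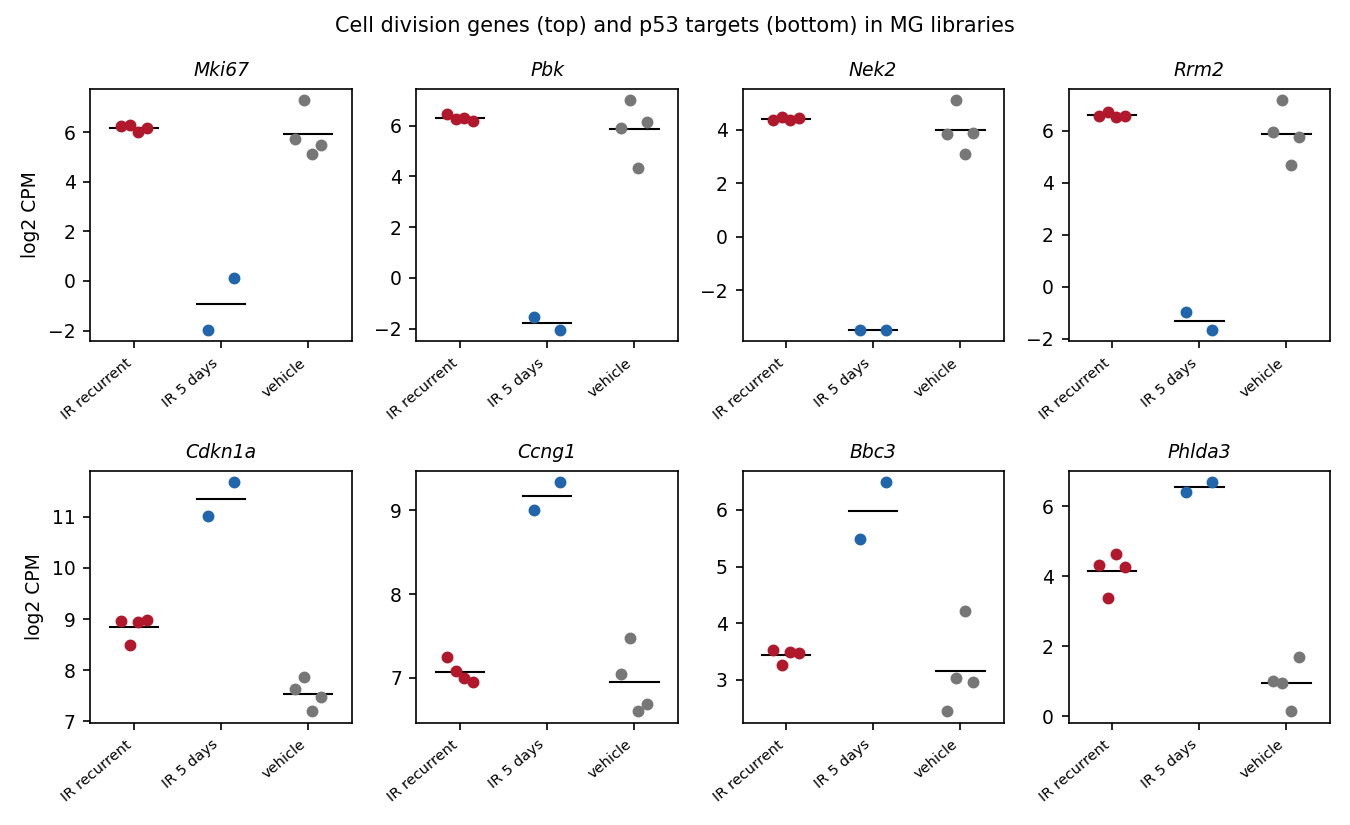
Levels in log2 CPM (vertical axes) of 4 cell division genes in the upper row and 4 p53 targets in the lower row, with 1 point per MG library in IR recurrence (red, 4 mice), 5-day IR (blue, 2 mice) and vehicle (grey, 4 mice) and a bar at each group's mean. Recurrent Mki67 levels of 6.02 to 6.30 lie far above the 5-day levels of -1.96 and 0.12, and recurrent Cdkn1a levels of 8.49 to 8.98 lie below the 5-day levels of 11.02 and 11.67.

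Immediate early genes were lower at recurrence. Of 24 immediate early and heat shock genes, 10 fell and none rose (background 3.43% lower, median -1.07). The summed CPM was 12082 to 14334 in recurrent MG, against 31305 and 31745 in 5-day MG, and 12636 to 30031 in vehicle MG. Jun, a subunit of the AP-1 transcription factor, stood at 9.15, 9.28, 9.06 and 9.41 in recurrent MG, against 11.11 and 11.93 in 5-day MG (-2.35 ± 0.40, adjusted p = 0.0014). Btg2, an antiproliferative gene that is also on the p53 list, stood at 9.39, 9.54, 9.44 and 9.73, against 11.52 and 11.73 (-2.10 ± 0.33, adjusted p = 0.000916). Dusp1, a phosphatase of MAP kinases, stood at 9.69, 9.62, 9.54 and 9.84, against 12.09 and 11.23 (-2.04 ± 0.42, adjusted p = 0.00412). The groups did not overlap for these 3 genes, as for 23% of all tested genes in the lower direction. Fos (-1.02), Atf3 (-0.80) and the heat shock genes Hspa1a (-1.36) and Hspa1b (-0.77) did not pass. Genes of this kind also respond to tissue dissociation, whose part was not tested. The count was 3 without the 2 doubted libraries, 4 without mouse 65698, 3 without mouse 65972 and 2 with the Malat1 minus Lars2 term, and Dusp1 lost the call without mouse 65698 (adjusted p = 0.0875).

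Genes that mark microglia were lower in recurrent MG. Of 27 identity genes tested, 10 fell and none rose (background 3.43% lower; median -0.75), and 25 had a negative fold change. Their summed CPM was 31826 to 40322 in recurrent MG, against 61484 and 82718 in 5-day MG, and 34033 to 84236 in vehicle MG. P2ry12, the ADP receptor that guides microglial processes (chromosome 3, 59216272 to 59262871, minus strand, mm10), stood at 9.75, 10.08, 9.53 and 9.87 log2 CPM in recurrent MG, against 11.51 and 12.45 in 5-day MG (-2.24 ± 0.39, adjusted p = 0.00151). Vehicle MG stood at 10.11 to 11.98 for P2ry12, above every recurrent library. Selplg, the P-selectin ligand, stood at 9.80, 10.02, 9.91 and 10.18, against 11.25 and 12.08 (-1.74 ± 0.33, adjusted p = 0.00264). P2ry13, a related ADP receptor, stood at 9.12, 9.35, 9.06 and 9.16, against 10.39 and 11.04 (-1.58 ± 0.34, adjusted p = 0.00525). Tgfbr1, a receptor of TGF-beta, on which microglia depend, stood at 8.88, 9.21, 8.93 and 9.24, against 10.61 and 11.13 (-1.82 ± 0.43, adjusted p = 0.00872). Each of the 4 separated the groups, as did 23% of all tested genes in the lower direction. Gpr34 (-1.71), Cst3 (-1.62), Tmem119 (-1.42), Slc2a5 (-1.27), Cx3cr1 (-1.18) and Mef2c (-1.08) were the other members that fell. The transcription factor gene Sall1 (-0.64), Siglech (-0.43), Olfml3 (-0.30) and Csf1r (-0.37) did not pass. No member of the list passed without 5-day mouse 65972, and 5 passed without the 2 doubted libraries, 6 without recurrent mouse 68343, 6 without recurrent mouse 68346 and 2 with the Malat1 minus Lars2 term. For P2ry12 the adjusted p was 0.0508 without mouse 65972 and 0.181 with that term.

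Genes typical of blood-derived macrophages were higher in part. Of 29 members, 8 rose and none fell (background 8.13% higher, median 2.09). The summed CPM overlapped, however, at 6814 to 7006 in recurrent MG, against 1646 and 7617 in 5-day MG. Ifitm3, an interferon-induced membrane protein (chromosome 7, 141009586 to 141010770, minus strand, mm10), stood at 9.17, 8.39, 9.09 and 8.96 in recurrent MG, against 6.29 and 4.14 in 5-day MG (3.35 ± 0.64, adjusted p = 0.00301). Vim, the intermediate filament vimentin, stood at 7.48, 6.90, 7.78 and 7.60, against 4.64 and 2.78 (3.49 ± 0.77, adjusted p = 0.00632). Runx3, a transcription factor gene, stood at 3.37, 3.64, 3.81 and 3.67, against -0.40 and -0.68 (4.33 ± 1.04, adjusted p = 0.0101). Itgal, an integrin subunit of leukocytes, stood at 5.02, 5.96, 5.58 and 5.13, against 2.09 and 0.12 (4.10 ± 1.06, adjusted p = 0.0161). The 4 genes were higher in every recurrent library than in either 5-day library, as were 30.5% of all tested genes. Cd44, S100a10, Anxa2 and Plac8 were the others that rose. The monocyte chemokine receptor Ccr2 (-2.55), the lysozyme gene Lyz2 (-0.32) and Itga4 (1.02) did not pass. No member passed without mouse 65972 or with the Malat1 minus Lars2 term, and 5 passed without recurrent mouse 68343. Of these 4 genes, Runx3 (adjusted p = 0.0912) also lost the call without mouse 65698, as did Itgal (0.057).

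Interferon-induced genes were higher. Of 40 members, 16 rose and none fell (background 8.13% higher, median 1.76). The summed CPM was 4705 to 5914 in recurrent MG, against 1393 and 2215 in 5-day MG, and 2276 to 4136 in vehicle MG. Every recurrent library thus lay above every 5-day and every vehicle library. Ifi27l2a stood at 9.11, 8.54, 8.72 and 8.75 in recurrent MG, against 5.53 and 2.62 in 5-day MG (4.09 ± 0.71, adjusted p = 0.00156). Isg15, a ubiquitin-like modifier, stood at 7.02, 5.90, 6.27 and 6.25, against 4.03 and 2.99 (2.83 ± 0.54, adjusted p = 0.00275). Rsad2, the antiviral enzyme viperin, stood at 8.10, 6.68, 6.95 and 7.09, against 4.40 and 2.20 (3.64 ± 0.70, adjusted p = 0.00308), with vehicle MG at 3.68 to 5.68. For each, 5-day mouse 65972 was the lower of the 5-day libraries. Oas3 (4.43), Ly6a (3.45), Zbp1 (3.35) and Irf7 (2.55), the regulator of interferon genes, also rose, while Irf9 (0.40) and Cxcl10 (1.71) did not pass. The count was 1 without mouse 65972, 10 without mouse 65698, 10 without mouse 68344, 9 without mouse 68345, 10 without the 2 doubted ones and 3 with the Malat1 minus Lars2 term. Isg15 (adjusted p = 0.0659) and Rsad2 (0.0608) lost the call without mouse 65972. Of the MHC class I list 1 of 17 members rose, the proteasome activator gene Psme1 (1.31 ± 0.37, adjusted p = 0.0242, and 0.22 without mouse 65972; it also lost the call without mice 65698, 68343, 68344 or 68345). The MHC class I count of 1 in 17 was near the background of 8.13%. Of the MHC class II list none of 10 passed, the median was -0.52, and 8 had a negative fold change. H2-DMa, at 1.59 ± 0.55 (adjusted p = 0.0642), was 1 of the 2 with a positive one.

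Genes of glycolysis and part of the hypoxia list were higher. Of 19 glycolysis genes 10 rose and none fell (background 8.13% higher, median 1.77). Their summed CPM was 8454 to 10881 in recurrent MG, against 1750 and 2868 in 5-day MG, and 3570 to 11792 in vehicle MG. Gapdh stood at 10.33, 9.89, 10.02 and 10.03 in recurrent MG, against 7.32 and 6.93 in 5-day MG (2.94 ± 0.51, adjusted p = 0.00151). Gpi1, phosphoglucose isomerase, stood at 8.91, 8.65, 8.93 and 8.83, against 6.50 and 5.88 (2.61 ± 0.41, adjusted p = 0.000916). Ldha, lactate dehydrogenase A, stood at 11.39, 10.78, 10.95 and 10.89, against 8.78 and 7.84 (2.64 ± 0.52, adjusted p = 0.00325). The groups did not overlap for any of the 3, as for 30.5% of all tested genes in the higher direction. The hexokinase genes Hk1 (0.67) and Hk3 (0.23) did not pass. Of 25 hypoxia genes 6 rose and none fell (background 8.13% higher, median 1.35). Hmox1, haem oxygenase 1, stood at 10.66, 10.50, 10.58 and 10.51, against 7.42 and 7.19 (3.26 ± 0.59, adjusted p = 0.00214). Adm, the vasoactive peptide adrenomedullin, stood at 6.03, 4.51, 5.47 and 5.45, against -0.40 and -1.65 (6.60 ± 1.21, adjusted p = 0.0022). Vegfa (1.01), the glucose transporter gene Slc2a1 (0.58) and Pdk1 (0.54) did not pass. The glycolysis count was 2 without mouse 65972, 6 without the 2 doubted ones and 0 with the Malat1 minus Lars2 term, and the hypoxia count was 1 without mouse 65972 and 1 with that term. Ldha (adjusted p = 0.0717) and Adm (0.052) lost the call without mouse 65972.

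**Figure D2:**
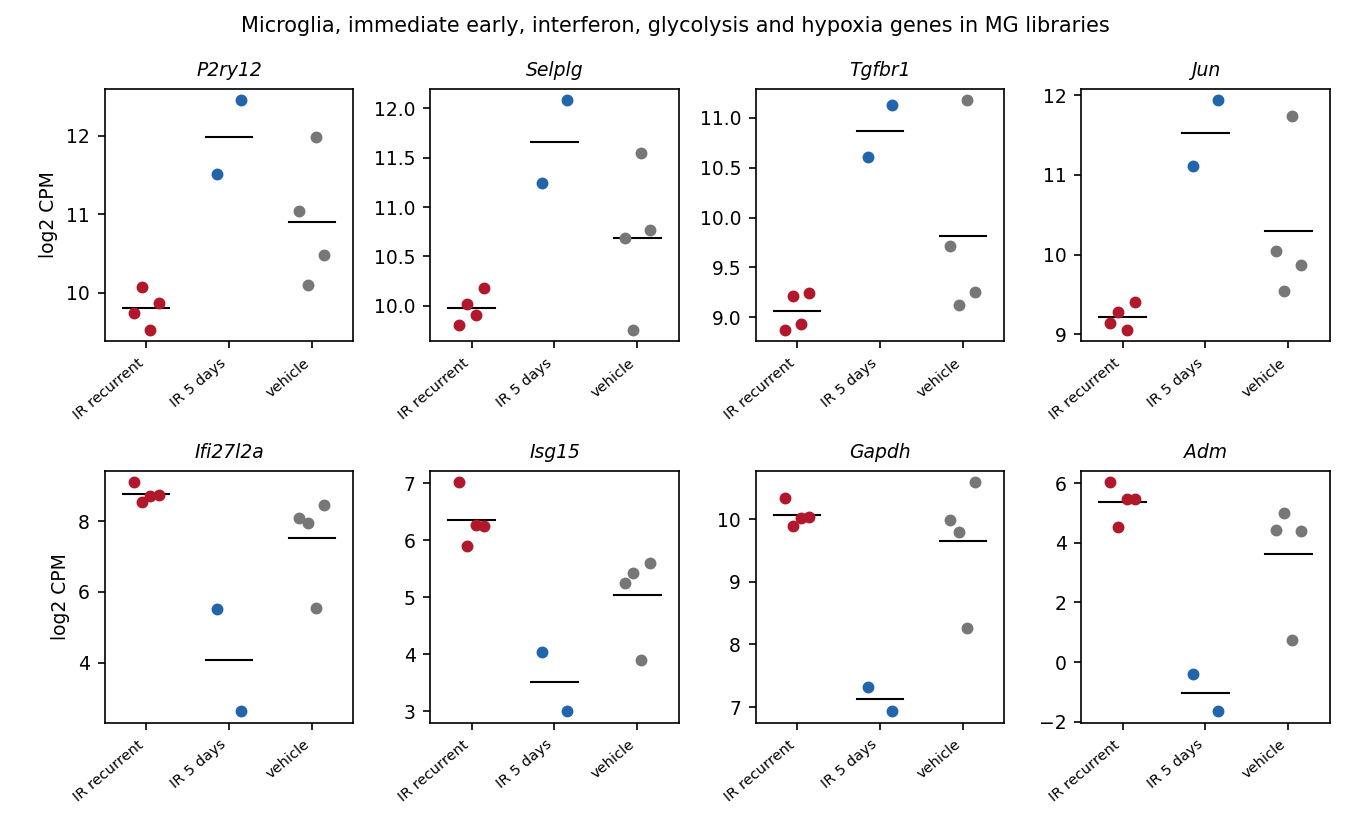
Levels in log2 CPM (vertical axes) of 8 genes with 1 point per MG library in IR recurrence (red, 4 mice), 5-day IR (blue, 2 mice) and vehicle (grey, 4 mice) and a bar at each group's mean. Recurrent P2ry12 levels of 9.53 to 10.08 lie below the 5-day levels of 11.51 and 12.45, and recurrent Ifi27l2a levels of 8.54 to 9.11 lie above the 5-day levels of 5.53 and 2.62.

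Secreted factors and lipid genes gave few calls. They are read against the 8.13% of all tested genes that rose and the 3.43% that fell. The count of alternative activation genes that fell, 1 of 21, was near the latter share. Of 13 genes of the IGF axis 3 rose, all of them binding proteins. Igfbp3 had 4009 counts in recurrent MG and 1 in 5-day MG, a ratio of 2168 (95% interval 389 to 85643, counting error only). Igfbp2 had 3257 counts and 3 counts, a ratio of 587 (201 to 2848). Igfbp7 had 845 and 3 counts, a ratio of 152 (51.9 to 740), and lost the call without mouse 65698 (adjusted p = 0.102) and without mouse 65972 (0.0618). Igf1 itself stood at 5.08, 7.0, 5.43 and 6.24 in recurrent MG, against 7.27 and 3.83 in 5-day MG (-0.27 ± 0.82, adjusted p = 0.872), and the groups overlapped. None of 28 lipid-laden and disease-associated genes passed, and 6 were higher without mouse 65698. Apoe, the main lipid carrier of the brain, stood at 12.42, 13.70, 12.91 and 13.12, against 16.03 and 11.82 (-1.99 ± 0.65, adjusted p = 0.0505), so that the 5-day libraries lay on either side of the recurrent ones, and its fold change was 1.30 without mouse 65698 and -2.91 without mouse 65972, where it passed (adjusted p = 0.0134). Of 21 alternative activation genes 1 fell, Retnla, with 1 count in recurrent MG and 141 in 5-day MG; without mouse 65698 it did not pass (adjusted p = 0.527). Arg1, arginase, stood at 8.54, 4.83, 7.58 and 6.81, against 3.28 and -0.68 (5.12 ± 1.96, adjusted p = 0.0915). Mrc1, a mannose receptor gene, stood at 3.81, 2.91, 4.31 and 3.85, against 5.05 and 5.88 (-1.72 ± 0.80, adjusted p = 0.164). Neither passed. The groups did not overlap for either gene, as for 30.5% (higher) and 23% (lower) of all tested genes.

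The lists that follow are read against the 8.13% of all tested genes that rose. Of 21 inflammatory cytokine and enzyme genes 2 rose, which is near that share, Nos2 (793 counts in recurrent MG and 1 in 5-day MG, a ratio of 429, 95% interval 76.7 to 16958, counting error only) and Ptges (3.22 ± 1.04, adjusted p = 0.0469). Of 24 chemokine genes 3 rose, namely Cx3cl1 (6.10 ± 1.17, adjusted p = 0.00301), the ligand of the microglial receptor CX3CR1, Ccl5 (3.53 ± 1.14, adjusted p = 0.0483) and Cxcl11 (2.58 ± 0.81, adjusted p = 0.042). In the complement list Cfb rose (2.81 ± 0.80). Of 31 matrix and protease genes 1 rose, below that share, namely Col4a2 (5.34 ± 1.56, adjusted p = 0.0303), and of 21 sterol synthesis genes 3 rose, Sqle (2.68 ± 0.58), Fdps (1.37 ± 0.37) and Srebf2 (1.33 ± 0.38). Without mouse 65972 none of these genes but Cx3cl1 passed; the adjusted p of Nos2 was then 0.0677 and that of Sqle 0.0977. Without mouse 65698 the values were 0.0766 and 0.0547. Only Cx3cl1 and Cfb passed without mouse 65698. Ptges, Ccl5 and Cxcl11 also lost the call without mice 68343, 68345 or 68346, as did Fdps, Srebf2, Cfb and Col4a2 without mouse 68345.

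**Figure D3:**
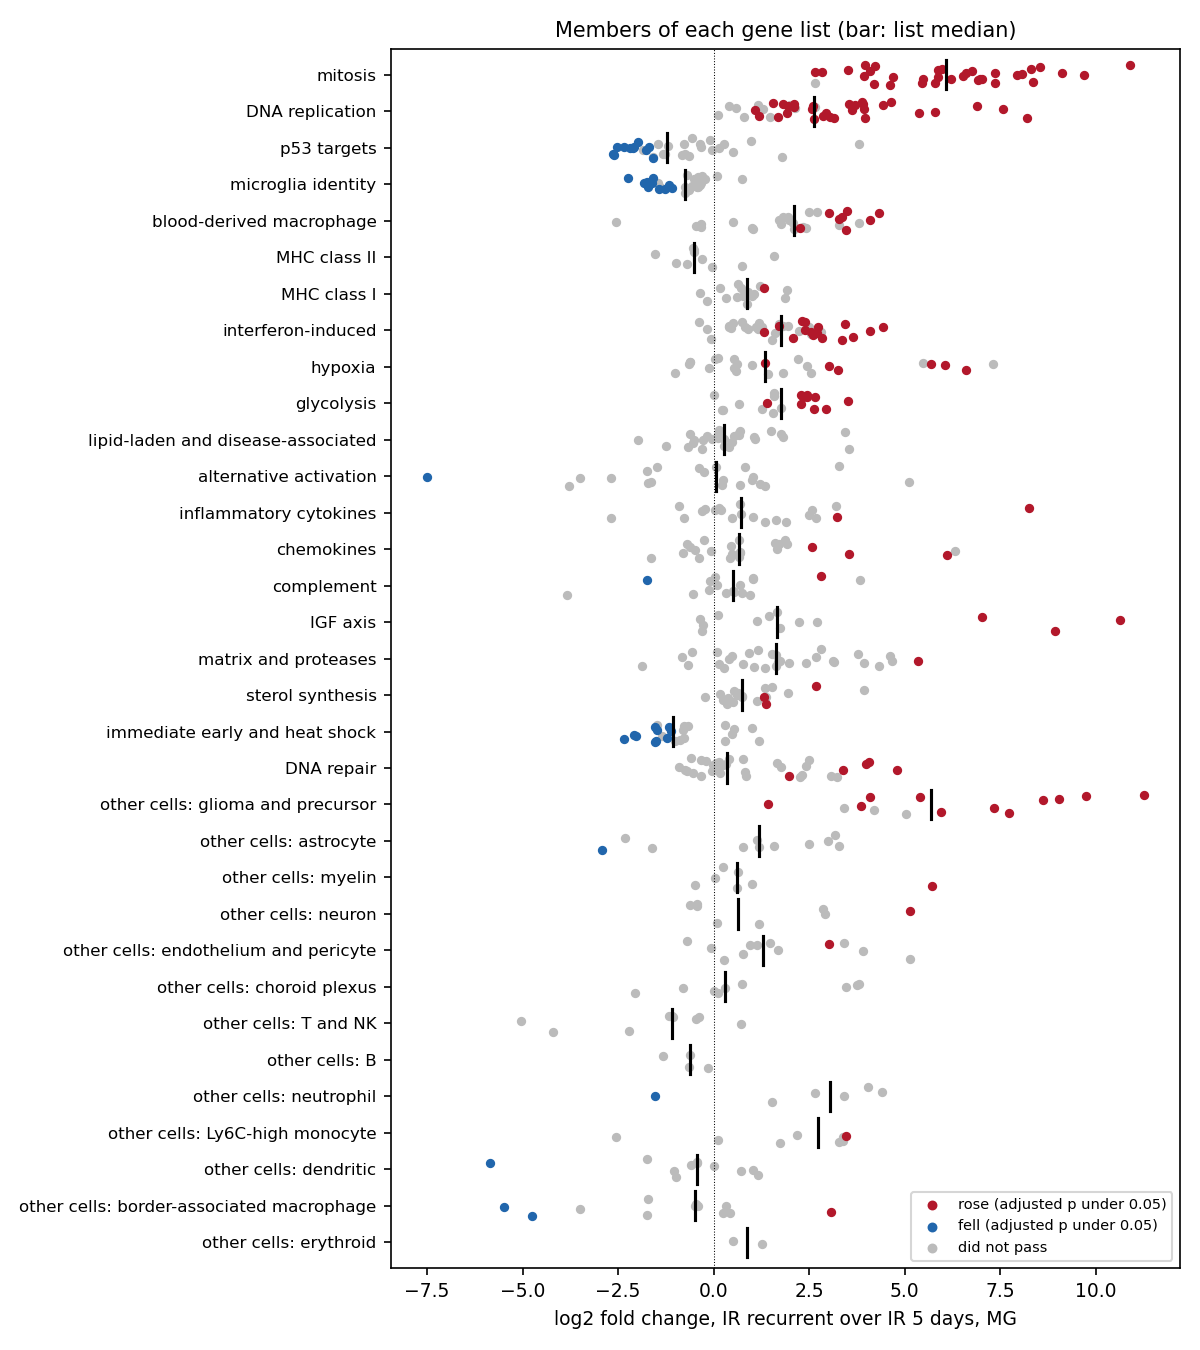
Log2 fold change of IR recurrence over 5-day IR in MG (horizontal axis) for each tested member of 33 gene lists (rows), in red where it rose, blue where it fell and grey where it did not pass, with a black bar at the list's median. The mitosis median lies at 6.09 and the p53 target median at -1.23.

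Markers of some other cell types differed between the groups, those of glioma and precursor cells most often, and their part in the results above was not tested. Of 14 markers of glioma and neural precursor cells 11 rose and none fell (background 8.13% higher). The median was 5.68, or 5.21 with genes absent at 5 days set to their bound. The summed CPM was 498 to 1071 in recurrent MG, against 45.2 and 47.8 in 5-day MG, and 108 to 172 in vehicle MG. Olig2, a transcription factor of the oligodendrocyte lineage that such gliomas express, had 1351 counts in recurrent MG and none in 5-day MG, at least 244-fold higher against a floor of 3 counts for the 5-day group. Its levels in recurrent MG were 4.26, 4.11, 5.12 and 5.27, with vehicle MG at -2.08 to 1.05. Olig1 stood at 6.60, 6.54, 7.65 and 7.55 in recurrent MG, against -3.48 and -1.34 in 5-day MG (9.74 ± 1.37, adjusted p = 0.000641). Pdgfra, the PDGF receptor, stood at 6.18, 6.69, 7.50 and 7.77, against -2.53 and -0.51 (8.62 ± 1.58, adjusted p = 0.0022). For these genes mice 68345 and 68346 were the higher recurrent libraries. The glioma marker count was 4 without the 2 doubted libraries, 6 without each 5-day mouse in turn and 5 with the Malat1 minus Lars2 term.

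Endothelial and pericyte markers summed to 145 to 229 CPM in recurrent MG, against 50.0 and 52.2 in 5-day MG, with 1 of 12 members higher, near the background of 8.13% (Cdh5, 3.03 ± 0.96, adjusted p = 0.0442), while Pecam1, with a log2 fold change of 0.28, did not pass. Astrocyte markers summed to 361 to 567 CPM, against 2061 and 2431, and 1 of 11 fell. This was the glutamate transporter gene Slc1a3 (7.89, 8.33, 8.43 and 8.07, against a 5-day mean of 11.1, -2.92 ± 0.56, adjusted p = 0.00308), which microglia also express. Gfap, with a log2 fold change of 3.00 (adjusted p = 0.0886), did not pass. Of the 11 astrocyte markers 8 had a positive fold change, and the median of the list was 1.18. Neutrophil markers summed to 281 to 462 CPM, against 600 and 960, and 1 of 6 fell, Csf3r (-1.53 ± 0.29). The other 5 had positive fold changes that did not pass, and the median of the list was 3.03. Of 12 markers of border-associated macrophages 2 fell, Lyve1 (-4.76 ± 1.12) and Cd209f (-5.49 ± 1.42), and Siglec1 rose (3.08 ± 0.72), with sums of 477 to 687, against 615 and 634. Of 11 dendritic cell markers 1 fell, Cd209a (-5.85 ± 1.13, adjusted p = 0.00308). Of the Ly6C-high monocyte list 1 of 8 rose, Plac8, with sums of 19.0 to 58.1, against 14.6 and 30.9. In the myelin list 1 of 7 rose, Cldn11, and in the neuron list 1 of 8, Tubb3. Single calls in such short lists are read against the 8.13% of all tested genes that rose and the 3.43% that fell. None passed of 9 choroid plexus, 9 T and NK, 4 B and 2 erythroid markers, and T and NK markers summed to 1.24 to 5.00, against 4.51 and 6.93. Choroid plexus markers summed to 15.3 to 58.8 CPM in recurrent MG, against 3.09 and 7.18 in 5-day MG, and 1.54 to 5.82 in vehicle MG, so that the sums did not overlap. Of the genes named in this paragraph only Slc1a3 and Cd209a passed without each 5-day mouse in turn. Without mouse 65698 the adjusted p of Csf3r was 0.073, and without mouse 65972 it was 0.113 for Cdh5, 0.0994 for Lyve1, 0.0647 for Cd209f, 0.131 for Siglec1, 0.199 for Plac8, 0.0994 for Cldn11 and 0.0775 for Tubb3. Cdh5 and Plac8 lost the call without any 1 of the 6 libraries.

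**Figure D4:**
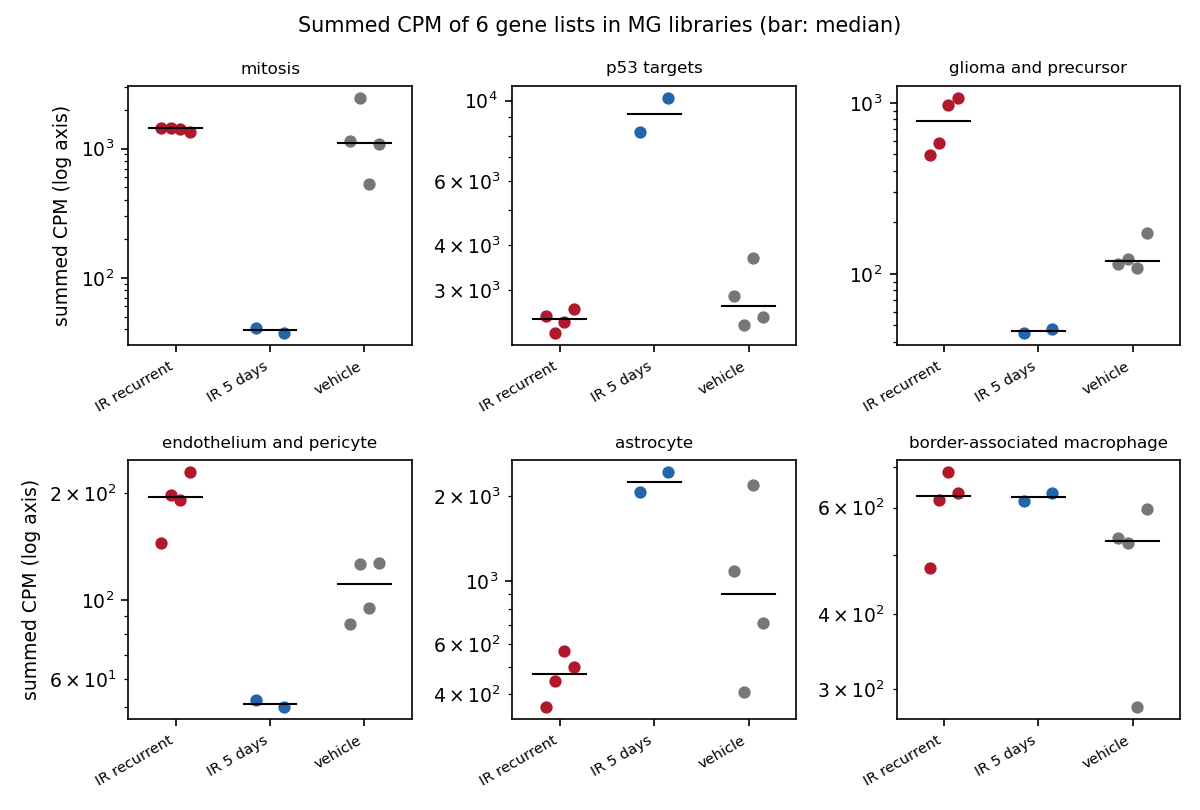
Summed CPM (logarithmic vertical axes) of 6 gene lists with 1 point per MG library in IR recurrence (red), 5-day IR (blue) and vehicle (grey) and a bar at each group's median. Mitosis sums of 1348 to 1446 in recurrent MG lie within the vehicle range, while glioma and precursor sums of 498 to 1071 lie above it.

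The largest single rises, chosen among genes that passed, without overlap between the groups and with a mean of at least 3 log2 CPM in 1 of them, were mostly genes without a count in 5-day MG. For 30.5% of tested genes every recurrent library lay above both 5-day libraries and for 23% below both. Besides Olig2 and Nek2 they were Pllp (at least 192-fold higher), Tspan6 (189), Rasl11a (168), Cacng5 (152), Sh3gl3 (146), Col16a1 (136), Lrrtm3 (134), Kcnip1 (114) and Emid1 (98.4), each against a floor of 3 counts over the 5-day group, and Igfbp3. Except for Nek2, whose vehicle levels are given above, vehicle MG did not exceed 1.05 log2 CPM for any of them. The adjusted p of Col16a1, Kcnip1 and Emid1 was 0.107, 0.0959 and 0.0841 without mouse 65972, and these 3 also lost the call without mouse 65698.

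The largest falls by the same rule of level and overlap were in Gpr165 (-5.20 ± 1.19), Lyve1, a hyaluronan receptor (-4.76), the cartilage matrix gene Matn1 (-3.99 ± 1.05), the sialyltransferase gene St8sia6 (-3.54 ± 0.92) and Tmem149 (-3.10 ± 0.84). Srpk3, a kinase of splicing factors, stood at 2.20, 3.06, 2.09 and 2.40 in recurrent MG, against 5.41 and 5.57 in 5-day MG (-3.04 ± 0.51, adjusted p = 0.00128). Abca9, a lipid transporter gene of the ABC family, stood at 6.36, 6.64, 5.98 and 6.49, against 8.95 and 9.60 (-2.93 ± 0.51, adjusted p = 0.00166). Malat1, Dnajc28, Col27a1, Slc1a3 and Gprasp2 completed the 12, at -2.94 to -2.78. The 11 genes other than Malat1, which is part of the term, lost the call with the Malat1 minus Lars2 term. The fold change was then -2.83 for Slc1a3, against -2.92 without the term, and -5.89 for Lyve1, against -4.76. It was -0.28 for St8sia6, -0.61 for Gprasp2, -0.67 for Tmem149 and -0.97 for Dnajc28, and -3.48 to -1.59 for the other 5. Without mouse 65972, Gpr165, Matn1, Col27a1, Lyve1, St8sia6, Tmem149, Dnajc28 and Gprasp2 lost the call, with fold changes of -4.43 (Lyve1) to -1.58 (Col27a1). Lyve1, St8sia6, Tmem149 and Dnajc28 also lost it without mouse 65698. Matn1 lost it without recurrent mouse 68343 or 68346, and Tmem149 without 68345. Gprasp2 lost it without any 1 of the 6 libraries and without a low-count filter, and kept it in 3 of 14 alternatives. Srpk3, Matn1, Dnajc28 and Gprasp2 lost it in a fit of all 46 libraries.

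The BMDM libraries of the same 6 mouse numbers were compared in a joint fit over all 46 libraries. There 1698 of 15901 genes rose and 970 fell in recurrent BMDM (10.7% and 6.1%), and in the same fit 744 rose and 351 fell in recurrent MG (4.68% and 2.21%). Mitosis genes were higher in both: 30 of 34 rose in MG (median 6.01) and 33 of 34 in BMDM (median 5.97). For p53 targets 12 of 32 fell in MG (median -1.30), and 16 fell and 1 rose in BMDM (median -1.79). Cdkn1a in BMDM stood at 8.61, 8.39, 8.08 and 8.51 at recurrence, against 10.65 and 10.97 at 5 days (-2.41 ± 0.37, adjusted p = 3.88e-05). Mki67 in BMDM stood at 6.16, 6.19, 6.12 and 6.67, against 3.36 and 3.03 (3.11 ± 1.00, adjusted p = 0.028). Tested directly, the difference between the populations passed for no member of the mitosis, replication or p53 lists, which does not show that the populations changed alike.

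Since the sex-linked profiles of the 2 libraries numbered 65698 differ, values of this comparison are also given without both. Over all genes this difference, MG minus BMDM, passed for 126 of 15901 (42 higher and 84 lower, 0.264% and 0.528%, or 0.792% in all). Ifitm3 was among them (2.98 ± 0.75, adjusted p = 0.0452): in BMDM it stood at 9.93, 8.83, 9.56 and 9.11 at recurrence, against 9.13 and 9.05 at 5 days. Rtp4, an interferon-induced chaperone gene, was another (2.73 ± 0.69, adjusted p = 0.0452); it stood at 7.12, 6.48, 6.64 and 6.61 in recurrent MG, against 4.56 and 3.07 in 5-day MG, and in BMDM at 7.69, 6.91, 6.99 and 6.84, against 7.16 and 7.21. Il12b, the interleukin 12 p40 subunit, differed by 7.91 ± 1.44 (adjusted p = 0.0046); in BMDM it stood at 2.19, 2.02, 4.33 and 4.08, against 8.04 and 9.57. Ifitm3 and Rtp4 both lost the call without MG of mice 68343, 68345 or 68346 (adjusted p = 0.0628 to 0.0952). Both also lost it without BMDM of mice 68344, 68345 or 68346 (0.0625 to 0.0925). Cx3cl1 differed by 7.75 ± 1.46, Sqle by 4.24 ± 0.85, Ccl5 by 5.55 ± 1.30 and H2-M2 by 8.15 ± 2.06. Gpc2, Cand2 and Sall3 had the largest negative differences (-10.16 ± 2.35, -9.46 ± 2.16 and -9.46 ± 2.26), and none of the 3 had a count in 5-day BMDM, so that these fitted values depend on the prior count. The number of genes was 6 without MG of mouse 65972, 19 without BMDM of mouse 65698 and 1091 without BMDM of mouse 65972, and 60 to 79 without MG of mice 68343, 68345 or 68346 or BMDM of mice 68344 or 68346. All 10 genes named for this difference lost the call without MG of mouse 65972 (adjusted p = 0.0595 for Cx3cl1, 0.0973 for Il12b and up to 0.445 for Ifitm3 and Rtp4). Without MG of mouse 65698 Cx3cl1 (0.0511) and H2-M2 (0.19) lost it, and all but Il12b, Cx3cl1 and Sqle without BMDM of mouse 65698 (0.0856 for Ccl5 to 0.28 for Sall3). Without both libraries numbered 65698 the difference passed for 33 genes (25 higher and 8 lower), of which Ifitm3 (adjusted p = 0.0479) was the only 1 among the 10.

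**Figure D5:**
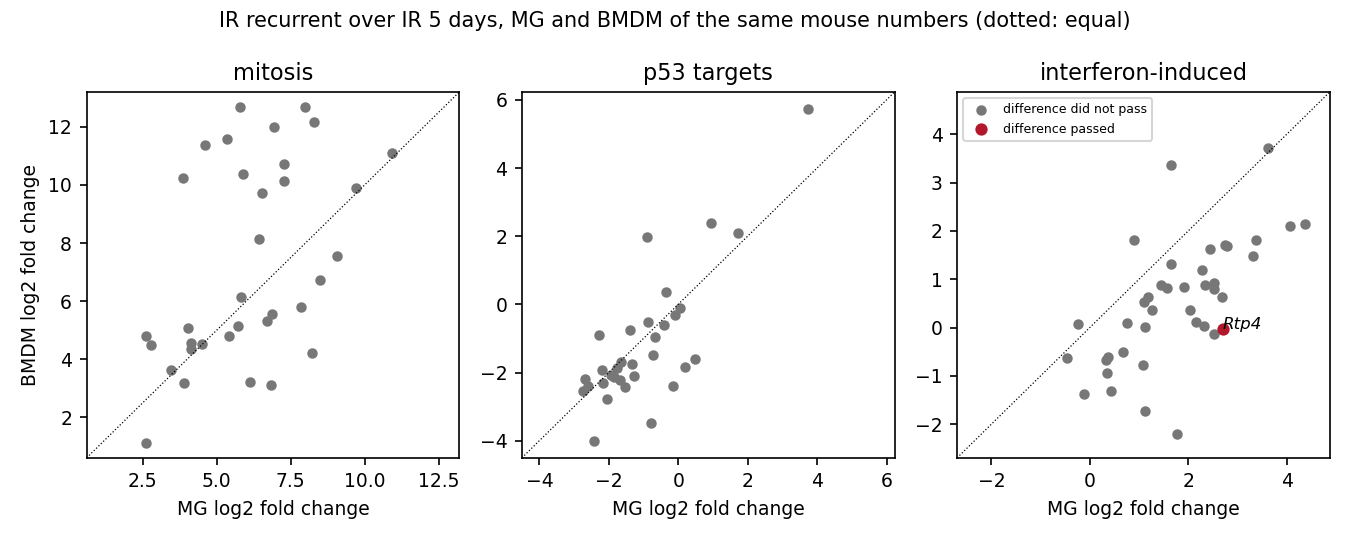
Log2 fold change of IR recurrence over 5-day IR for members of 3 gene lists in MG (horizontal axes) and in BMDM (vertical axes) of the same 6 mouse numbers, from the joint fit, with a dotted line of equal change and red points where the difference between the populations passed. Mitosis genes lie in the positive quadrant for both populations, and Rtp4 is the member of the interferon-induced list whose difference passed.

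The change after IR was also set against that after IR+BLZ945, in 4 MG libraries of recurrent tumours and 3 taken at 5 days, from other mice. The difference passed for 24 of 14534 genes (10 higher and 14 lower, 0.0688% and 0.0963%, or 0.165% in all). P2ry12 was among them (-3.17 ± 0.54, adjusted p = 0.0247): in IR+BLZ945 MG it stood at 9.98, 9.24, 10.12 and 10.68 at recurrence, against 9.11, 9.08 and 9.29 at 5 days. Crybb1, a crystallin gene of developing and adult microglia (-4.53 ± 0.78, adjusted p = 0.0247), stood there at 7.46, 7.51, 7.63 and 8.43, against 4.42, 3.56 and 3.98. Selplg (-2.31 ± 0.45) and Thrsp (-3.15 ± 0.64), a regulator of lipid synthesis, differed likewise (adjusted p = 0.0498 each). Igfbp2 (8.47 ± 1.70), A2m (9.16 ± 1.57) and Enpp2 (8.89 ± 1.8) differed in the opposite direction. In 5-day IR+BLZ945 MG Igfbp2 stood at 5.48, -1.27 and 5.47, and Enpp2, which makes lysophosphatidic acid and also marks the choroid plexus, at 9.39, 2.57 and 9.63, where the middle value is that of mouse 65971, the shallowest library. Choroid plexus markers in IR+BLZ945 MG summed to 7.04 to 27.8 CPM at recurrence, against 1810, 128 and 1642 CPM at 5 days, in the same order of mice as Igfbp2 and Enpp2, and so were high where those 2 genes were high. The part of such cells in these differences was not tested. Of the mitosis and p53 lists no member passed. The number of genes was 186 without MG of mouse 65971, 141 without mouse 67537, 8 without mouse 65698, 6 without mouse 65972, 4 without mouse 67169, 14 without mouse 67947, 1 without mouse 68343 and 0 without each of mice 65696, 68362, 68344, 68345 and 68346. The 7 genes named for this difference lost the call without mouse 65972 (adjusted p = 0.086 for Crybb1, 0.111 for P2ry12 and up to 0.155 for Enpp2 and Selplg) and without each recurrent IR mouse in turn.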

How the data were processed

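RNA sequencing counts of MG and BMDM sorted from 23 mice were used (46 libraries). Per the labels' protocols, RNA of the sorted cells was amplified with Smart-Seq chemistry, which carries no molecular identifiers, so intervals and floors cover counting error only. The submitters' processing notes name STAR 2.5.0e, CASAVA 1.8, DESeq2 and HTSeq, and mm10 as the build. Annotation and strand setting are not given in the sources used here; counts of overlapping genes, antisense genes and close paralogs cannot be told apart. The deposited table held raw counts per gene for 23329 symbols, of which 1535 had no count. Depth was 3007379 to 16993474 counts per library.

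Groups were taken from the titles and replicates are separate mice. Among the 6 libraries of the comparison, no pair within a group was a duplicate (correlations of at most 0.983). Pairs across groups and in the other groups were not checked. The main test was the quasi-likelihood test of edgeR 4.0.16 (with R 4.3.3 and limma 3.58.1; TMM scaling, robust, filterByExpr with minimum count 10 and minimum total 15) in 1 fit of the 23 MG libraries over 7 stages, which share the estimate of spread (16 residual degrees of freedom), because the 5-day arm has 2 libraries. The 14534 genes kept held 99.95% of the counts. The MG minus BMDM difference came from 1 fit of all 46 libraries (15901 genes). The mouse number in the titles pairs an MG with a BMDM library, except for 65698, whose 2 libraries differ in their sex-linked profile; the correlation of their deviations from the group means was -0.09 to 0.44. Levels are log2 CPM with a prior count of 1. Scripts were tested on simulated counts. Alternatives were DESeq2 1.42.0, RLE scaling, no low-count filter, terms for the sex-linked profile and for Malat1 minus Lars2, the mouse as a block, other sets of libraries and leaving out each library.

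The 33 gene lists hold 623 genes, of which 620 were in the table, 8 of them under another symbol, and 586 were tested in MG. The comparison, the lists and the rule for naming genes were chosen with earlier results of these data known. The rule takes the 12 largest rises and falls that passed without overlap and reached a mean of 3 log2 CPM in a group, up to 4 members that passed from each list (or 2 of the smallest p), the 3 largest of each direction for the 2 differences, and fixed genes followed or used as checks. Predicted, clone-named, ribosomal protein, mitochondrial and receptor segment genes were left out of the largest changes. Other list members in the text are given to show the range of their list. Coordinates of genes are those of GENCODE vM21. Some members of the lists are not reported here by name.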

Additional observations from a re-analysis of the deposited data

Results flagged for a closer look

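In the 4 recurrent MG libraries, 114 genes were checked for a library far from the other 3, a test that chance meets in about 1 of 20 genes, and 7 were flagged. In mouse 68344, the shallowest of the 4, Rrm2 stood at 6.73 log2 CPM with the others at 6.54 to 6.57, Cdkn1a at 8.49 with the others at 8.95 to 8.98, Cxcl11 at 2.56 with the others at 3.54 to 3.64, Siglec1 at 5.21 with the others at 6.00 to 6.09, and Cdkn2a at 1.11 with the others at 0.15 to 0.28. In mouse 68345 Gpc2 stood at 1.70 with the others at 1.04 to 1.14. In mouse 68343 Retnla stood at -2.64 from 1 count, with no count in the others.

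The difference between IR recurrence and 5-day IR was itself different between MG and BMDM for 10 named genes (test of the interaction, MG minus BMDM). On the log2 scale it was higher in MG by 2.98 for Ifitm3, 2.73 for Rtp4, 7.75 for Cx3cl1 and 5.55 for Ccl5. It was higher by 4.24 for Sqle, 8.15 for H2-M2 and 7.91 for Il12b. The value was -10.16 for Gpc2, -9.46 for Cand2 and -9.46 for Sall3. Of 21 alternatives, the call held in 5 for H2-M2, 9 for Rtp4, 11 for Ifitm3 and 12 to 19 for the others. Between IR and IR+BLZ945 the interaction in MG passed with values of -3.17 for P2ry12, -2.31 for Selplg, -4.53 for Crybb1 and -3.15 for Thrsp. It also passed with 8.47 for Igfbp2 and 9.16 for A2m. Of 19 alternatives, the call held in 4 for Igfbp2, 6 for Thrsp, 7 for Selplg, 9 for A2m and 12 for P2ry12 and for Crybb1.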

How the results depend on the processing

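For the MG comparison the count of 1680 genes was 2875 with DESeq2, 1730 with RLE scaling, 1331 without a low-count filter, 1523 with a sex-linked term, 379 without the 2 doubted libraries, 165 with the Malat1 minus Lars2 term, 5583 (51.4% of them higher, against 70.4% of the 1680) with only the 6 libraries and 1095 with all 46, and 358 to 1351 with each library left out. Leaving out a 5-day mouse leaves 1 library in that arm, which is then assumed to vary like the other groups. The MG minus BMDM difference passed for 538 genes with DESeq2, 81 without a filter, 125 without the 2 doubted libraries, 144 with the mouse as a replicate block, and 6 to 1091 with each library left out, against 126; under the block Gpc2 (adjusted p = 0.0713) and Sall3 (0.0836) lost the call among the 10 genes named for this difference. In alternatives chosen after seeing the data, it passed for 33 genes without both libraries numbered 65698, and for 64 with the replicate block as well, where Il12b, Cx3cl1, Ifitm3, Rtp4 and Ccl5 kept the call. The IR minus IR+BLZ945 difference passed for 634 genes with DESeq2, 9 with RLE, 19 without a filter, 7 without the 2 doubted libraries, 10 with the sex-linked term and 0 to 186 with each library left out, against 24; 2434 genes had an unadjusted p under 0.05. Of 94 named genes that passed, 94 kept the call and direction with DESeq2 and with RLE, 51 without the 2 doubted libraries, 41 without mouse 65972 and 30 of the 92 outside the term with the Malat1 minus Lars2 term. Apoe, Igf1 and Ptprc turned sign under some alternatives and did not pass there. Apoe was 1.04 without the 2 doubted libraries and -2.91 to 1.30 with each library left out, against -1.99. Igf1 was 1.85 without the 2 doubted libraries, 0.18 with the sex-linked term and -1.14 to 2.31 with each library left out, against -0.27. Ptprc was 0.28 without the 2 doubted libraries, 0.52 with the Malat1 minus Lars2 term and -1.16 to 0.25 with each library left out, against -0.62. The positive ends are those without mouse 65698. The cause was not tested in any case. Depth limits genes near a count of 0 in the 5-day libraries, whose folds are bounds.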
